A study of Mus musculus with 24 samples.

Results

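Transcripts of 10 chemokine ligands were measured in mouse hippocampus: Ccl2, Ccl12, Ccl3 and Ccl4, Cxcl10 and Cxcl16, Cxcl12 and Cxcl14, Cx3cl1 and Ccl27a. They were chosen by name, as 10 of the 24411 gene symbols in the count table, and all 10 were in it. The study tested a Nanoligomer cocktail, in which antisense peptide nucleic acids on gold nanoparticles target NF-κB and NLRP3, in aging mice and in mice with tau pathology. RNA-seq of whole hippocampus gave 24 columns, 4 for each of 6 groups. Young mice (9 months), old mice (20 months) and treated old mice (Old-Nano, 20 months) were wildtype C57/B6 animals. The tauopathy groups, all aged 3 months, were rTg4510 mice, rTg4510 mice given the cocktail (rTg4510-Nano) and littermate (LM) controls. rTg4510 mice express mutant human tau in the forebrain, and treatment was by repeated intraperitoneal injection over about a month. The genotype field of the LM samples also reads rTg4510, and their own description and treatment were followed here. The transgenes the littermates carry were not given in the sources used here. The rTg4510 columns M2 and M3 were identical and were counted once, so rTg4510 had 3 libraries and the other groups 4 each.

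Chemokines are small secreted or membrane-tethered proteins that guide cells along gradients through G protein-coupled receptors. In brain, Ccl2, Ccl3, Ccl4, Ccl12 and Cxcl10 are classed as inflammatory ligands, made largely by glia and, for several of them, induced through NF-κB or interferon signaling. Cxcl12 and Cx3cl1 are present in the healthy brain, where Cx3cl1 on neurons meets its receptor Cx3cr1 on microglia.

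Promoters show how the ligands differ in the sequence next to their start sites, and NF-κB is a target of the cocktail. RefSeq promoters (GRCm38.p6, 250 bases before to 50 after the start) were found for 7 of the 10 genes, with 9 start sites in all. Both strands were searched for the κB consensus and for the core of the interferon-stimulated response element, which is GAAA, any 2 bases and GAAA again (the interferon motif). The 250 bases upstream are shown for Cxcl10 (chr5:92348890-92349139, minus strand), Ccl12 (chr11:82101595-82101844, plus strand) and Cxcl14 (chr13:56296552-56296801, minus strand), because Cxcl10 and Ccl12 varied together between libraries and Cxcl14 did not overlap between young and old mice. Capitals mark every match.
Cxcl10: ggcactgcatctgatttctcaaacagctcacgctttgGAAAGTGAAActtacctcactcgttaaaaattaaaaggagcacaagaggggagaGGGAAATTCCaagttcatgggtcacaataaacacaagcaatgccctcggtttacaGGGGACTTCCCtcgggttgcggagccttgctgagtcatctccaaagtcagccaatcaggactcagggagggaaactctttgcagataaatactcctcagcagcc
Ccl12: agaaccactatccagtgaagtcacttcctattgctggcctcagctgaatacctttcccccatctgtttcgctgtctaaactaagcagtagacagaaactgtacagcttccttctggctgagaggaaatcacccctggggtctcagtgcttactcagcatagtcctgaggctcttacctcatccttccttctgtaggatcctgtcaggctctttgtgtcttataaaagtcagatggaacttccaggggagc
Cxcl14: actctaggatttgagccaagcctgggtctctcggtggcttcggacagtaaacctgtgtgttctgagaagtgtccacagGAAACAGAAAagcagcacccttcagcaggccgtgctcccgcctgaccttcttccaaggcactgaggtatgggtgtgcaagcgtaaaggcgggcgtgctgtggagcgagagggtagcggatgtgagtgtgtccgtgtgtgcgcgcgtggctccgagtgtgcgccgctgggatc
The Cxcl10 promoter held the κB consensus at 3 positions, of which 2 overlap by all but 1 base and read as 1 run of capitals, and the interferon motif at 1 position. Cxcl14 held the interferon motif at 1 position. Of the other members, Ccl27a had 1 κB match, downstream of the last of its 3 start sites, and neither motif was found in the windows of Ccl3, Ccl12, Cxcl12 or Cx3cl1. Of all 32851 promoters of this length, 8.46% held the κB consensus and 3.44% held the interferon motif. A match describes letters only, and binding was not measured.

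Levels spanned a wide range. Per kilobase of exon, Cx3cl1 was highest at 153 ± 26.3 CPM per kb (mean ± SD over 23 libraries, CPM being counts scaled to a common library total), followed by Cxcl14 at 62.3 ± 14.3. Ccl27a (13.4 ± 3.94) and Cxcl12 (10.8 ± 3.59) came next and lay within each other's spread. The remaining 6 ligands were scarce and overlapped in spread: Ccl3 at 0.780 ± 0.565, Cxcl16 at 0.694 ± 0.412, Ccl12 at 0.611 ± 0.636, Ccl4 at 0.351 ± 0.348, Cxcl10 at 0.265 ± 0.354 and Ccl2 at 0.197 ± 0.461 CPM per kb. Libraries held 17214974 to 27424344 counts (median 24018290). Ccl2 and Ccl4 each had a count in 18 of 23 libraries, with a median of 2 and 4 counts. A count of 0 allows up to 3 counts, or 0.110 to 0.183 CPM depending on the library. These limits cover counting error only.

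Several libraries stood apart in markers of other tissue. Old M1 carried striatal markers (1107 CPM summed over 8 genes, the highest of its group, whose median was 96.6), young M4 olfactory bulb markers (1735 CPM over 8 genes, against a group median of 79.0) and rTg4510-Nano M2 hypothalamic markers (275 CPM over 8 genes, against a group median of 3.67). Pituitary markers stood at 1819 CPM in rTg4510-Nano M3 and 498 CPM in LM M1. Markers of hippocampal principal neurons were lowest in young M4 (150 CPM), rTg4510-Nano M2 (222 CPM), old M1 (271 CPM) and Old-Nano F1 (353 CPM). Choroid plexus markers summed to 4585 to 19024 CPM in rTg4510 libraries, against 38.4 to 254 CPM in LM and 36.5 to 107 CPM in rTg4510-Nano. Hepatocyte markers, 10 genes, reached 728 CPM in young, 549 in old and 31.8 in Old-Nano libraries. Old-Nano M2 had the highest level of all 23 libraries for 6 of the 10 ligands. The main fold changes of the 10 ligands that rest on Old-Nano M2, old M1, young M4 or rTg4510-Nano M2 are given with and without them.

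**Figure D1:**
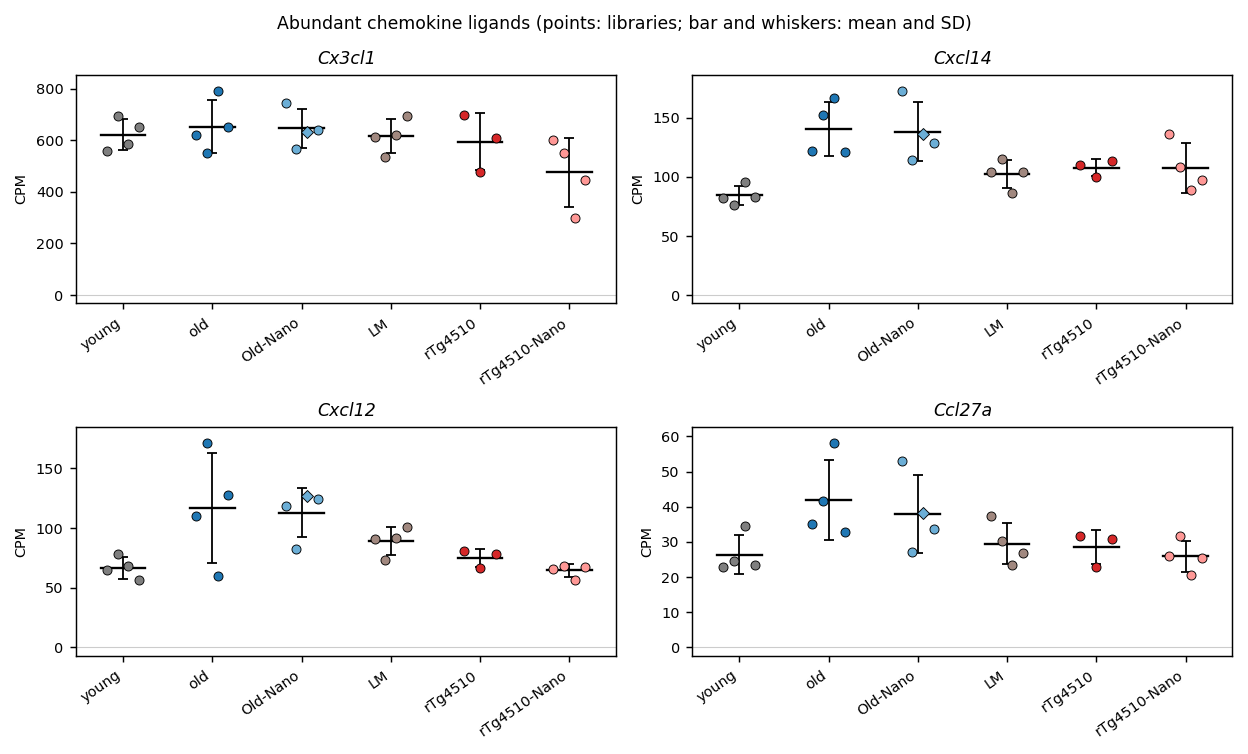
CPM (vertical axes, from 0) of the 4 abundant ligands in the 6 groups. Points are libraries, and the bar and whiskers are mean and SD (n = 4, for rTg4510 n = 3). All 4 old libraries lie above all 4 young libraries for Cxcl14, with young at 76.6 to 95.6 and old at 121 to 167 CPM.

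With age, Cxcl14 and Cxcl16 were the tested ligands whose groups did not overlap. Cxcl14 (chromosome 13, 56288643-56296551) encodes a chemokine common in epithelia and in some interneurons. It stood at 82.2, 76.6, 95.6 and 83.1 CPM in young F2, F4, M1 and M4, and at 122, 153, 167 and 121 CPM in old F2, F3, M1 and M3. Every old library lay above every young library. The mean went from 84.4 ± 8.02 to 141 ± 23.0 CPM (SD, n = 4 each), a log2 fold change of 0.74 (SE 0.14). The edgeR adjusted p was 0.299 over 15335 genes, and the DESeq2 Wald test, run as an alternative, gave an adjusted p of 0.000807.

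Cxcl16, a transmembrane chemokine that is shed by ADAM proteases and binds Cxcr6, showed the same separation at a far lower level. Young libraries held 0.909, 0.963, 0.951 and 1.22 CPM (21 to 30 counts), and old libraries 2.22, 3.13, 1.39 and 1.53 CPM (32 to 66 counts). The lowest old value was in M1. The log2 fold change was 1.03 (SE 0.31, edgeR adjusted p = 0.376). In the annotation 18.3% of the exon bases of Cxcl16 are shared with Zmynd15 on the other strand, and since the strand setting of the counts was not given, reads there cannot be told apart. Zmynd15 itself was at 0.295 ± 0.137 CPM in young and 0.210 ± 0.213 CPM in old mice (SD, n = 4).

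Cxcl12, the ligand of Cxcr4 and of the scavenger receptor Ackr3, stood at 64.5, 78.5, 68.2 and 56.1 CPM in young libraries and at 111, 171, 59.6 and 127 CPM in old F2, F3, M1 and M3. Old M1 alone overlapped the young group, and it is the library with striatal markers. The log2 fold change was 0.81 (SE 0.29, edgeR adjusted p = 0.415), and without old M1 it was 1.03 (SE 0.17, adjusted p = 0.316). Ccl27a, a ligand of Ccr10, had 23.0, 24.5, 34.5 and 23.5 CPM in young and 35.1, 41.7, 58.1 and 32.9 CPM in old libraries. Young M1 and old M3 overlapped. Its log2 fold change was 0.67 (SE 0.21, adjusted p = 0.384).

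Cx3cl1 showed little difference with age, with young libraries at 557 to 694 CPM and old libraries at 549 to 791 CPM (log2 fold change 0.07, SE 0.14, edgeR adjusted p = 0.892). Ccl3, a ligand of Ccr1, had 1, 2, 4 and 15 counts in young and 17, 19, 14 and 11 counts in old libraries, with only young M4 in the range of the old group (log2 fold change 1.49, SE 0.70, adjusted p = 0.516). Without young M4, Ccl3 was under the count minimum and not tested. Cxcl10, which binds Cxcr3, was at 0.394 ± 0.213 CPM in young and 0.593 ± 0.269 CPM in old mice (log2 fold change 0.59, SE 0.52, adjusted p = 0.713). DESeq2 gave no adjusted p for Ccl3 and Cxcl10 here. The other 3 inflammatory ligands were under the minimum mean count of 10 and were not tested. Ccl2 had 0 to 3 counts in young and 3 to 5 in old libraries, Ccl4 had 0 to 4 and 3 to 12, and Ccl12 had 4 to 8 and 8 to 15.

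No member passed the edgeR threshold (adjusted p under 0.05) in old against young mice, where 0.013% of all genes tested did, and 4 of the 7 tested had an unadjusted p under 0.05, as did 1574 of all 15335 genes. By DESeq2 1 member passed, against 1.59% of genes. Of the 7, 2 lay above the young group with no overlap, against 4.46% of genes. Without old M1 and young M4, the log2 fold changes were 0.63 (SE 0.13) for Cxcl14, 1.27 (SE 0.32) for Cxcl16, 0.95 (SE 0.17) for Cxcl12 and 0.41 (SE 0.18) for Ccl27a. Ccl3 (1 to 15 counts) and Cxcl10 (5 to 16) averaged under the count minimum in young mice. They were tested through their counts in old mice, so their positive values depend on the filter. With all libraries the median of the 7 was 0.74, against -0.02 over all genes tested. Markers of microglia moved with these values: 11 of 12 had a positive log2 fold change (median 0.62, 1 past edgeR and 5 past DESeq2), and their sum was 402 to 484 CPM in young and 447 to 793 CPM in old libraries. Other lists also had mostly positive values, with 8 of 8 striatal markers (median 2.96), 6 of 6 oligodendrocyte markers (0.37), 5 of 6 endothelial markers (0.26) and 5 of 7 astrocyte markers (0.35), while 8 of 8 olfactory bulb and 10 of 10 hepatocyte markers were negative. Over the 23 libraries Cxcl12 followed endothelial markers at r = 0.74 and microglial markers at 0.67, and Cxcl16 followed astrocyte markers at 0.72 and microglial markers at 0.67, as descriptions of points that share library and group. Without Old-Nano M2 these were 0.71 and 0.63 for Cxcl12, and 0.64 and 0.54 for Cxcl16. By Spearman rank correlation over the 23 libraries they were 0.50 and 0.61 for Cxcl12, and 0.66 and 0.64 for Cxcl16. Cxcl12 also went against olfactory bulb markers, at r = -0.60 and a Spearman value of -0.73. Cxcl14 followed microglial markers at r = 0.61 and inhibitory neuron markers at 0.59. The part of these markers in the ligand values was not tested. In bulk tissue, more or fewer cells of a type and more or less RNA per cell cannot be told apart. As nothing in the labels names cultures or litters, p-values measure the spread between these samples.

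**Figure D2:**
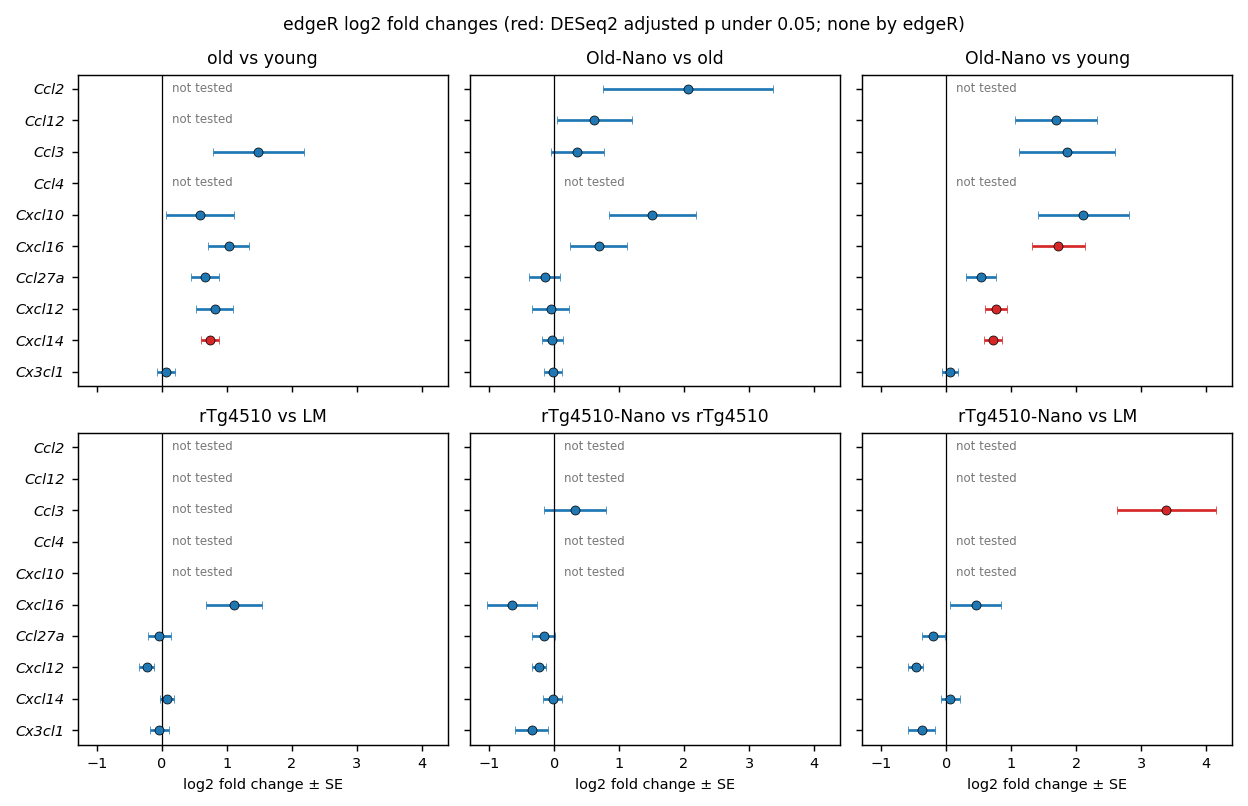
edgeR log2 fold change with its SE (horizontal axis) for each ligand in the 6 comparisons, first group minus second. Red points passed DESeq2 (1 in old vs young, 3 in Old-Nano vs young, 1 in rTg4510-Nano vs LM), none passed edgeR, and genes under the count minimum are written as not tested.

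In treated old mice the abundant ligands were near the old level. Cxcl14 stood at 173, 114, 137 and 129 CPM in Old-Nano F1, F2, M2 and M5, and Cxcl12 at 118, 82.5, 127 and 124 CPM, within the range of the old libraries for all 4 values of Cxcl12. Against old mice the log2 fold changes were -0.03 (SE 0.16) for Cxcl14, -0.05 (SE 0.29) for Cxcl12, -0.01 (SE 0.13) for Cx3cl1 and -0.14 (SE 0.24) for Ccl27a, each with an edgeR adjusted p of 0.9998. Against young mice, Cxcl14 (0.72, SE 0.14, edgeR adjusted p = 0.365, DESeq2 0.00232) and Cxcl12 (0.76, SE 0.16, edgeR adjusted p = 0.378, DESeq2 0.00661) did not overlap the young group. The old and Old-Nano comparisons with young share the young libraries.

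The scarce ligands in Old-Nano were set largely by M2. Ccl2, the main ligand of the monocyte receptor Ccr2, had 0, 6, 70 and 1 counts in Old-Nano F1, F2, M2 and M5, so that M2 stood at 2.57 CPM and the other 3 at up to 0.239. Ccl12, a mouse Ccr2 ligand in the same cluster on chromosome 11, had 8, 7, 42 and 23 counts. M2 was highest and M5 next. Ccl4, an inflammatory CC chemokine, had 4, 7, 23 and 6 counts, and Ccl3, its neighbor, had 17, 14, 40 and 16. Cxcl10 stood at 0.459, 0.955, 3.88 and 1.46 CPM, with 106 counts in M2. Cxcl16 stood at 1.79, 2.39, 6.23 and 2.85 CPM. M2 was the highest of its group in each of these 6, by a factor of 68.5 over the median of the other 3 libraries for Ccl2 and of 2.45 for Ccl3. For Cxcl12, Cxcl14, Cx3cl1 and Ccl27a the factor was 0.988 to 1.14. Over all 15362 genes compared, 3.54% were more than 1 log2 unit above the rest of the group in M2.

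**Figure D3:**
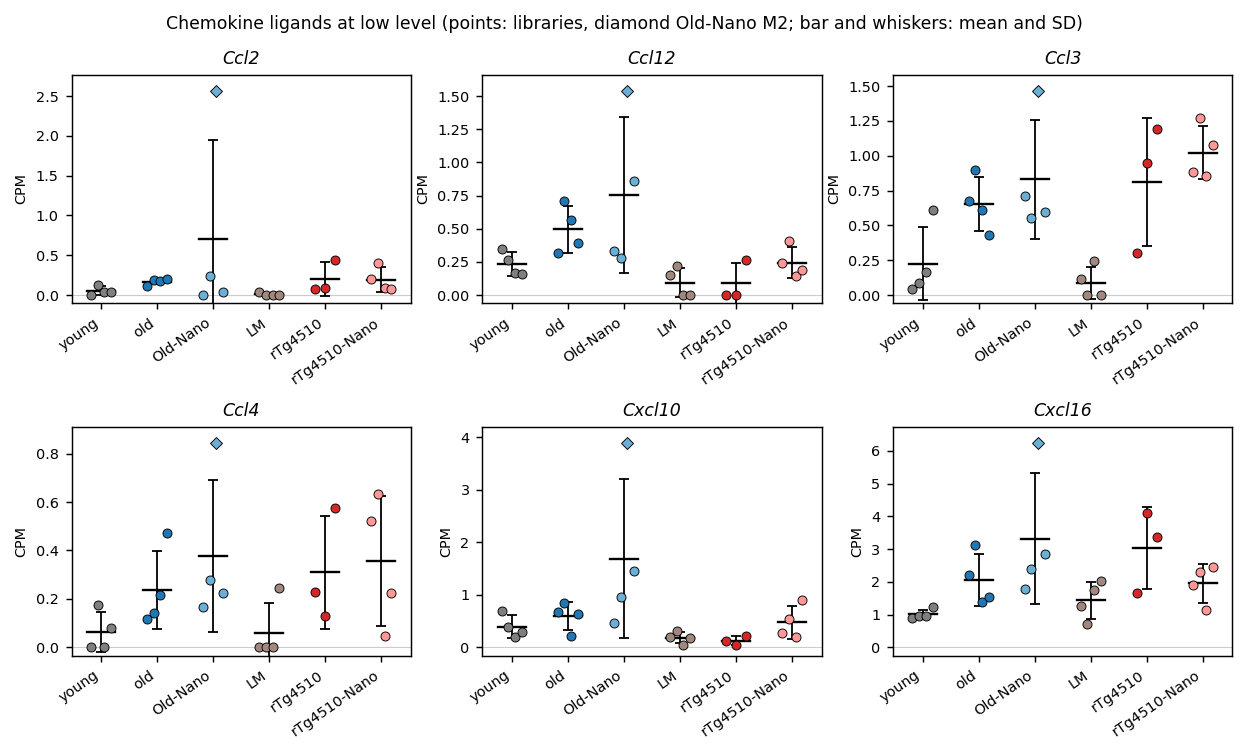
CPM (vertical axes) of the 6 scarce ligands in the 6 groups. Points are libraries, diamonds mark Old-Nano M2, and the bar and whiskers are mean and SD (n = 4, for rTg4510 n = 3). Old-Nano M2 is the highest point in all 6 panels, at 2.57 CPM for Ccl2 and 6.23 CPM for Cxcl16.

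With M2, the log2 fold change of Old-Nano against old was 1.51 (SE 0.67) for Cxcl10, and without it 0.69 (SE 0.54). For Cxcl16 it was 0.69 (SE 0.43) with M2 and 0.18 (SE 0.34) without, for Ccl12 0.62 and 0.00, and for Ccl3 0.36 and -0.07. Ccl2 had 2.06 with M2 and was not tested without it, being then under the count minimum. All these edgeR adjusted p-values were 0.9998. No member of the 9 tested passed edgeR or DESeq2 (which gave no adjusted p for Ccl2), against 0% of genes by either test, and 185 of 15257 genes had an unadjusted p under 0.05, none of them a member. No member lay clear of the old group, where 0.229% of genes lay above it and 0.452% below. Microglial markers in M2 summed to 1010 CPM, against 502 to 716 CPM in the other Old-Nano libraries, and T cell markers to 5.46 CPM, against 2.67 to 3.56. M2 was also the highest of its group for border macrophage (15.9 CPM), meningeal (172 CPM), choroid plexus (102 CPM), hepatocyte (31.8 CPM), endothelial (319 CPM), astrocyte (8557 CPM) and oligodendrocyte markers (9912 CPM). Their part in the M2 values was not tested.

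Against young mice, Old-Nano had log2 fold changes of 2.11 (SE 0.70) for Cxcl10, 1.86 (SE 0.73) for Ccl3, 1.72 (SE 0.41) for Cxcl16 and 1.69 (SE 0.63) for Ccl12, with edgeR adjusted p-values of 0.415, 0.448, 0.402 and 0.438. Without M2, Cxcl10 was at 1.28 and Cxcl16 at 1.21, and Ccl3 and Ccl12 were not tested. Without young M4, the library with olfactory bulb markers and the highest Ccl3 of its group, Ccl3 was at 3.02. No member passed edgeR, where 0.00651% of genes did, while 3 of the 8 tested passed DESeq2 (Cxcl12, Cxcl14 and Cxcl16, the last at an adjusted p of 0.0168), against 1.73% of genes. The same 3 lay above the young group with no overlap, against 3.96% of genes. By edgeR, 7 of the 8 had an unadjusted p under 0.05, as did 1622 of all 15368 genes. The median over the 8 was 1.23, against -0.02 over all genes. In young mice Ccl3, Ccl12 and Cxcl10 (1 to 15, 4 to 8 and 5 to 16 counts) averaged under the count minimum. They were tested through their Old-Nano counts, so their positive values, and with them the median, depend on the filter. The remaining values were 0.06 for Cx3cl1, 0.53 for Ccl27a, 0.72 for Cxcl14, 0.76 for Cxcl12 and 1.72 for Cxcl16.

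**Figure D4:**
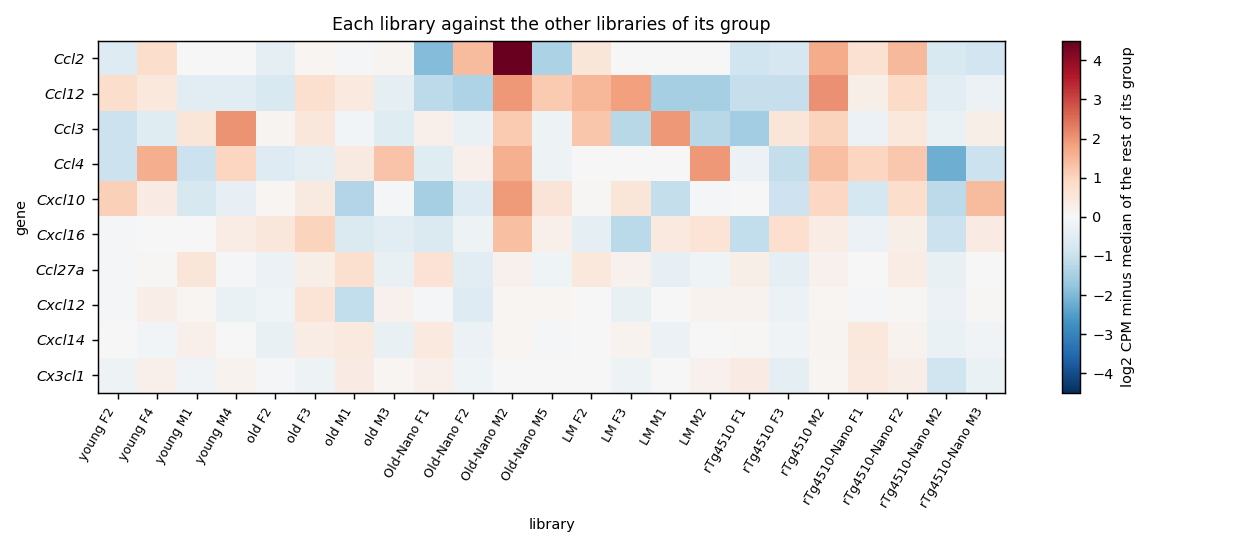
Log2 CPM of each ligand (rows) in each library (columns) minus the median of the other libraries of its group, on a color scale from below (blue) to above (red). Old-Nano M2 is red for the 6 scarce ligands, with 4.44 for Ccl2, and near 0 for the 4 abundant ones.

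In rTg4510 mice the abundant ligands lay close to LM. Cxcl14 was at 110, 99.6 and 114 CPM in rTg4510 F1, F3 and M2 and at 104, 115, 86.4 and 105 CPM in LM F2, F3, M1 and M2 (log2 fold change 0.08, SE 0.11, edgeR adjusted p = 0.807). Cxcl12 was at 80.6, 66.6 and 78.0 CPM against 90.5, 72.8, 91.9 and 101 CPM (-0.23, SE 0.12, adjusted p = 0.436). Both pairs of groups overlapped. Cx3cl1 and Ccl27a both had a log2 fold change of -0.04 (SE 0.14 and 0.18).

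Among the scarce ligands, Ccl3 had 8, 22 and 27 counts in rTg4510 F1, F3 and M2, and 3, 0, 5 and 0 counts in LM F2, F3, M1 and M2. The groups did not overlap in CPM, from 0.303 to 1.19 against 0 to 0.242. Ccl2 had 2, 2 and 10 counts against 1 count in 1 of the 4 LM libraries. Its CPM values did not overlap, but for 2 of the 3 rTg4510 libraries the separation is within counting error. rTg4510 F1 and F3, at 0.0757 and 0.0863 CPM, lay under the 0.116 to 0.183 CPM that a count of 0 allows in LM. rTg4510 M2, at 0.442 CPM, lay above that limit. The share of all genes separated at such counts was not taken. Ccl3 and Ccl2 were under the count minimum and have no test there. With no filter, edgeR gave an adjusted p of 0.227 for Ccl3 and 0.295 for Ccl2. Ccl4 had 6, 3 and 13 counts against 0, 0, 0 and 4. Ccl12 and Cxcl10 had 0 to 6 and 1 to 5 counts in rTg4510 and 0 to 5 and 1 to 7 in LM.

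Cxcl16 had 1.67, 4.10 and 3.36 CPM in rTg4510 against 1.28, 0.703, 1.74 and 2.01 CPM in LM, with rTg4510 F1 within the LM range. The log2 fold change was 1.11 (SE 0.43, edgeR adjusted p = 0.311). With the choroid plexus markers as a covariate, it turned to -1.23 (SE 1.35, adjusted p = 0.763), and the covariate's values did not overlap between these groups. No member of the 5 tested passed edgeR (0.811% of genes did) or DESeq2 (5.04%), and 1 had an unadjusted p under 0.05, as did 2082 of all 15166 genes. None of the 5 lay above LM without overlap, against 7.73% of genes. The median of the 5 was -0.04, against -0.0011 over all genes. Microglial markers had positive log2 fold changes for 12 of 12 genes (median 0.46), with sums of 480 to 678 CPM in rTg4510 and 363 to 457 CPM in LM.

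In treated rTg4510 mice, Ccl3 was near the level of untreated rTg4510 mice, with 22, 28, 18 and 29 counts in rTg4510-Nano F1, F2, M2 and M3 (log2 fold change against rTg4510 0.32, SE 0.48, edgeR adjusted p = 0.991). Against LM all 4 libraries lay higher, at 0.857 to 1.27 CPM. With 0 to 5 counts in LM, Ccl3 was tested only through its rTg4510-Nano counts, so a high value was favored by the filter. The log2 fold change was 3.38 (SE 0.76, unadjusted p = 0.00178, edgeR adjusted p = 0.611), and DESeq2 gave an adjusted p of 0.00429. With each replicate left out the value was 2.97 to 4.35, the highest without LM M1, which holds 5 of the 8 LM counts. Ccl2 had 5, 9, 2 and 2 counts, with each library above every LM library in CPM. Here M2 and M3, at 0.0952 and 0.0745 CPM, lay under the 0.116 to 0.183 CPM that a count of 0 allows in LM. Ccl4 had 13, 14, 1 and 6 counts. Ccl12 had 3 to 9 and Cxcl10 4 to 24 counts, all untested here.

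Cxcl12 had its lowest group mean in rTg4510-Nano (64.5 ± 5.36 CPM, SD, n = 4), at 65.5, 68.5, 56.7 and 67.4 CPM. Every library lay below every LM library, with a log2 fold change of -0.47 (SE 0.11, edgeR adjusted p = 0.611, DESeq2 0.0642) that was -0.41 without M2. Against rTg4510 it was -0.24 (SE 0.11, edgeR adjusted p = 0.943). In rTg4510-Nano against LM, 10 of 10 markers of hippocampal principal neurons also had negative values (median -0.93). Endothelial and microglial markers, which Cxcl12 followed over the libraries, had 4 of 6 (median 0.05) and 8 of 12 (0.18) positive values. Olfactory bulb markers, which Cxcl12 went against, had 4 of 7 (median 1.28) positive values. The part of these markers in the Cxcl12 value was not tested. Cx3cl1 was at 603, 552, 299 and 446 CPM, with the lowest value of all 23 libraries in M2, the library with hypothalamic markers. Against LM its log2 fold change was -0.38 (SE 0.21, adjusted p = 0.611), and without M2 -0.21 (SE 0.12). Against rTg4510 it was -0.35 (SE 0.25), and without M2 -0.15 (SE 0.18). Cxcl16 was at 1.89, 2.31, 1.14 and 2.46 CPM, a log2 fold change against rTg4510 of -0.65 (SE 0.39, adjusted p = 0.959) that also turned, to 1.36 (SE 1.48), with the choroid plexus covariate. Cxcl14 was at 137, 109, 88.6 and 97.4 CPM and Ccl27a at 20.7 to 31.6 CPM, both overlapping the other tauopathy groups.

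No member passed edgeR in rTg4510-Nano against rTg4510 (0.0521% of genes did) or DESeq2 (1.47%), none of the 6 tested had an unadjusted p under 0.05 (845 of all 15358 genes did), and none lay clear of rTg4510, where 3.13% of genes lay above and 4.11% below without overlap. Their median log2 fold change was -0.20, against -0.0018 over all genes. Microglial markers had negative values for 12 of 12 genes (median -0.28). In rTg4510-Nano against LM none passed edgeR (0.0263% of genes did) and 1 of 6, Ccl3, passed DESeq2 (0.364%). By edgeR, 2 of the 6 had an unadjusted p under 0.05, as did 1222 of all 15191 genes. Of the 6, 1 lay above LM (2.65% of genes) and 1 below (2.28%), with a median of -0.07 against 0.01 over all genes. Ccl3 was also the 1 above, and it was tested only through its rTg4510-Nano counts.

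The effects in the 2 models were compared directly in 1 edgeR fit of all 6 groups over 15360 genes. The age effect of Cxcl12 exceeded the tauopathy effect by 1.06 on the log2 scale (SE 0.31, unadjusted p = 0.00325, adjusted p = 0.171), and without old M1 by 1.27 (SE 0.23, adjusted p = 0.0131). For Cxcl14 the difference was 0.66 (SE 0.21, adjusted p = 0.220), for Ccl27a 0.72 (SE 0.32, adjusted p = 0.460) and for Cxcl16 -0.06 (SE 0.61, adjusted p = 0.995). For the treatment effects, Cxcl16 differed by 1.32 (SE 0.58, adjusted p = 0.99997), or 0.82 without Old-Nano M2. No member passed in either contrast with all libraries, where 104 of the 15360 genes passed for the age minus tauopathy effect and 53 for the treatment effects. The share of all genes past the threshold without old M1 is not given here.

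Several receptors for these ligands were measured in the same libraries. Per kilobase of exon, Cx3cr1, the microglial receptor of Cx3cl1, was highest at 15.0 ± 3.89 CPM per kb (SD, n = 23), followed by Ackr3 (3.88 ± 1.04), Cxcr4 (1.66 ± 0.694), Ccr10 (0.316 ± 0.140) and Ccr1 (0.115 ± 0.0908). Cxcr6, Cxcr3 and Ccr2 were at 0.0520, 0.0508 and 0.0368 CPM per kb, with a median of 2, 1 and 4 counts. Cxcr4, whose value with age was opposite in sign to that of its ligand, stood at 4.67, 4.29, 2.69 and 3.74 CPM in young and 2.06, 0.995, 1.48 and 2.48 CPM in old mice. The groups did not overlap (log2 fold change -1.13, SE 0.32, edgeR adjusted p = 0.357, DESeq2 0.0583). The share of all genes below the young group without overlap is not given here. Of the 7 receptors tested in old against young mice, 4 had positive and 3 negative values (median 0.06). Cx3cr1 was at 52.7 to 62.7 CPM in young, 39.4 to 96.6 in old and 61.2 to 112 CPM in Old-Nano, where M2 was highest.

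In the wider chemokine system, 31 further ligands, 23 receptors and 6 proteases were listed, of which 5, 7 and 6 were tested in old against young mice and 6, 12 and 6 in rTg4510 against LM. By edgeR, Ccl6 and Ackr4 passed in rTg4510 against LM. Ccl6, a mouse CC chemokine of myeloid cells, was at 2.57 to 5.17 CPM in rTg4510 and 0.872 to 1.23 CPM in LM (log2 fold change 1.87, SE 0.32, adjusted p = 0.0469). Ackr4, a scavenger receptor for Ccl19, Ccl21 and Ccl25, was at 4.11 to 7.19 CPM against 0 to 0.232 CPM (5.40, SE 0.61, adjusted p = 0.0211), and fell by 4.61 on the log2 scale in rTg4510-Nano against rTg4510 (SE 0.39, adjusted p = 0.0236), to 0.121 to 0.335 CPM. With a median of 5 counts over the 23 libraries, Ackr4 was tested in both comparisons only through its rTg4510 counts, so its large values were favored by the filter. The choroid plexus markers moved with Ackr4 in both comparisons, and their part in it was not tested.

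By DESeq2 alone, 4 more passed. Ctss, the microglial protease cathepsin S, which can release Cx3cl1 from the membrane, had log2 fold changes of 0.94 in old and 1.24 in Old-Nano against young and 0.59 in rTg4510 against LM (edgeR adjusted p = 0.306, 0.386 and 0.116). Ccl5, a CC chemokine of T cells, was at 0.0414 to 0.216 CPM in young and 0.459 to 1.36 CPM in Old-Nano (2.59, SE 0.53, edgeR adjusted p = 0.365). With a median of 4 counts over the 23 libraries, Ccl5 was tested there only through its Old-Nano counts. Ccl5 (37 counts) and Ctss (5968 counts) were both highest in Old-Nano M2, and their values without M2 were not taken. Adam17, which sheds Cx3cl1 and Cxcl16, had 0.51 (SE 0.12) in rTg4510 against LM, and Mmp2, which can cleave Cxcl12, 1.75 (SE 0.31), with -1.38 (SE 0.35) in rTg4510-Nano against rTg4510 (edgeR adjusted p = 0.108, 0.0532 and 0.394). Mmp2 was highest in rTg4510 F3, at 16.8 CPM. That library was also highest in choroid plexus markers (19024 CPM) and meningeal markers (1381 CPM), which summed to 421 to 1381 CPM in rTg4510 and 104 to 239 CPM in LM for the meninges. Their part in Mmp2 was not tested.

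Across the 23 libraries, the pairs of ligands that varied most alike in log2 CPM were Ccl12 with Cxcl10 (Pearson r = 0.84, and 0.79 without Old-Nano M2) and Cxcl14 with Ccl27a (0.83, and 0.83 without it). Points share library, depth and group, so these are descriptions. Among 15336 genes, those most like Cxcl16 were Fes, Tlr2 and Fyb (r = 0.89, 0.87 and 0.84), and those most like Ccl3 were Bcl2a1b, which has close copies that may share reads, Plek and Ptpn6 (0.83, 0.82 and 0.79). Cxcl10 was most like Adgre1, Anxa3 and 4931408D14Rik (0.77, 0.77 and 0.76), Cxcl12 most like Mlph, Bglap3 and Mcc (0.83, 0.82 and 0.82) and Cxcl14 most like Crlf2, Shc4 and Dmp1 (0.87, 0.84 and 0.84). Without Old-Nano M2 the values for Cxcl10 were 0.69, 0.66 and 0.77, and those for Cxcl16 0.87, 0.83 and 0.79. Cx3cl1 followed Josd1, Mlip and Ube3b (0.91, 0.89 and 0.88). By Spearman rank correlation the Cx3cl1 values were lower, at 0.74, 0.72 and 0.66. Its lowest library, rTg4510-Nano M2, was kept in these correlations. Ccl27a followed Galt, Ovol2 and Ngef (0.94, 0.91 and 0.89).

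The reads of Ccl27a need a caveat of position. Ccl27a (chromosome 4, 41769467-41774247, minus strand) shares 8 of its 2377 exon bases with Il11ra1, and Galt lies 10772 bases away on the same chromosome. Its near-identical copy Ccl27b was listed at 0 in every library, so reads common to both may be split or lost. Galt was at 30.7 ± 4.70 CPM in young and 43.0 ± 10.2 CPM in old mice, and Il11ra1 at 13.9 ± 1.28 and 20.3 ± 3.11 CPM (SD, n = 4). Cxcl10 (chromosome 5, 92346638-92348889) lies within Art3 on the other strand and shares 5.91% of its exon bases with it. Art3 was at 2.58 ± 0.753 CPM in Old-Nano, where Cxcl10 was at 1.69 ± 1.52 CPM.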

How the data were processed

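RNA was measured by RNA-seq of whole hippocampus. The authors deposited whole-number counts per gene symbol, from poly(A) RNA, after read trimming (fastp) and STAR alignment against the mm10 genome. Which program counted, and with what strand setting, was not given in the sources used. Dates replaced the symbol for 27 genes (0.318% of counts). Each pair of groups was fitted with edgeR 4.0.16 in R 4.3.3 (quasi-likelihood, robust, TMM, two-sided) over genes whose mean normalized count reached 10, at a Benjamini-Hochberg threshold of 0.05. Standard errors were derived from the F statistic. CPM used TMM-scaled totals, and log2 CPM a prior count of 2. Exon lengths and positions came from GENCODE vM21 (GRCm38). Figures used Python 3.11.15 and matplotlib 3.10.9.

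Named genes are the 10 members, their receptors, listed chemokine genes past the threshold by edgeR or DESeq2 1.42.0, and the 3 genes most alike each member with a mean count of at least 10. Members, lists and the libraries left out were chosen with earlier results of these data known, and the look at Old-Nano M2 after seeing the data. Alternatives were other normalization, test, filters and covariates, the 3 groups of a model together, a replicate block, left-out libraries and both identical columns kept. On simulated data edgeR found 36% of 2-fold and 74% of 4-fold changes among 15335 genes in old against young, and 66% and 84% among 15166 genes in rTg4510 against LM. Protein measurements were not used here, and 1 listed gene is not reported here.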

Additional observations from a re-analysis of the deposited data

Results flagged for a closer look

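All 10 ligands were checked at both ends of every group of 4 libraries. The gap between the highest and the next library was large against the whole range for 6 values. By this rule chance flags about 1 in 20 groups of normally distributed values, a rate that does not hold for counts near 0. In Old-Nano, M2 stood out for Ccl2 (2.57 CPM), Ccl3 (1.47 CPM) and Ccl4 (0.843 CPM). In LM, F2 stood out for Ccl2 at 0.0387 CPM, which is 1 count where the other 3 libraries had none, and M2 for Ccl4 at 0.244 CPM, which is 4 counts where the others had none. With 3 libraries at 0, any count in the last library is flagged. In young mice, M1 stood out for Ccl27a at 34.5 CPM, with the others at 23.0 to 24.5 CPM. Causes were not tested.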

How the results depend on the processing

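Of 925 log2 fold changes of members under alternatives, 845 kept their direction and side of the threshold, 6 passed it only there and 74 had the opposite sign. Counts of members past the threshold were 0 by edgeR, and by DESeq2 1 in old vs young, 3 in Old-Nano vs young and 1 in rTg4510-Nano vs LM. The age effect minus the tauopathy effect had 0 to 1 members past it with each replicate left out (1, Cxcl12, without old M1), and the other counts were 0 under every alternative run. Over all genes, edgeR called 2, 1, 123, 8 and 4 genes and DESeq2 235, 262, 762, 225 and 55, while 3 groups fitted together gave 6, 1, 207, 90 and 2, no filter 0, 1, 136, 19 and 4 and the title letter as covariate 0, 0, 33, 0 and 0, in old vs young, Old-Nano vs young, rTg4510 vs LM, rTg4510-Nano vs rTg4510 and rTg4510-Nano vs LM. With both identical columns kept, edgeR called 404 and 54 genes in rTg4510 vs LM and rTg4510-Nano vs rTg4510, and still no member. With the choroid plexus covariate rTg4510 vs LM had 5, and without the libraries with other-region markers rTg4510-Nano vs LM had 8.

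Whether replicate numbers pair the samples could not be settled. In the 4 comparisons with 2 shared numbers, deviations of same-numbered libraries correlated at -0.30 to 0.38, and 2 numbers each are too few to tell. Under the replicate block no member passed (0 in each), all genes called in rTg4510 vs LM were 286, and Cxcl14 had -0.047 in rTg4510 vs LM and -0.10 in rTg4510-Nano vs LM, opposite in sign. For Old-Nano vs old and Old-Nano vs young no block could be fitted, since Old-Nano shares only F2 with old and young.

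Signs also turned as follows, all for values not past the threshold. Without the libraries with markers of other brain regions, Cx3cl1 was -0.019 in old vs young, Cxcl14 0.067, Cx3cl1 0.091 and Ccl27a 0.053 in Old-Nano vs old, and Cxcl14 0.082 in rTg4510-Nano vs rTg4510. With hepatocyte markers as covariate Cxcl12 was 0.47 in Old-Nano vs old. With choroid plexus markers as covariate Cxcl16, Cx3cl1 and Ccl27a were -1.23, 0.38 and 1.37 in rTg4510 vs LM, and Cxcl16 1.36 in rTg4510-Nano vs rTg4510. For the difference of the treatment effects, Ccl27a was 0.014 with DESeq2 size factors and 0.014 by DESeq2, 0.023 with no filter and 0.023 with a minimum of 50, Cxcl14 was 0.0028 and 0.0043 under the same filters, and Ccl3 -0.063 with the title letter as covariate.

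With each replicate left out, signs turned in these ranges. Old vs young: Cx3cl1 -0.040 to 0.14. Old-Nano vs old: Ccl3 -0.066 to 0.55, Cxcl12 -0.27 to 0.19, Cxcl14 -0.15 to 0.067, Cx3cl1 -0.089 to 0.091 and Ccl27a -0.35 to 0.053. Old-Nano vs young: Cx3cl1 -0.014 to 0.12. rTg4510 vs LM: Cxcl14 -0.011 to 0.15, Cx3cl1 -0.17 to 0.091 and Ccl27a -0.15 to 0.096. rTg4510-Nano vs rTg4510: Ccl3 -0.072 to 0.69 and Cxcl14 -0.15 to 0.082. rTg4510-Nano vs LM: Cxcl14 -0.073 to 0.15. Age minus tauopathy effect: Cxcl16 -0.36 to 0.20 and Cx3cl1 -0.031 to 0.25. Difference of treatment effects: Ccl3 -0.40 to 0.42, Cxcl10 -1.21 to 0.12, Cxcl12 -0.053 to 0.42, Cxcl14 -0.15 to 0.11 and Ccl27a -0.21 to 0.20. The causes were not tested. Counting error limits the ligands with a median of 2 to 15 counts per library (Ccl2, Ccl4, Ccl12, Cxcl10 and Ccl3) most, and Cxcl16, with a median of 43, less.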
